A study of Mus musculus with 6 samples.

Results

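Imprinted genes are expressed mainly from the copy inherited from one parent, and 42 of them, chosen by name from the known imprinted domains of the mouse, were followed here by domain and by the parental allele that is expressed. On the array 35 of the 42 had a probe set with 1 gene symbol, out of 19296 genes measured in that way. H19, Kcnq1ot1 and Zrsr1 had no probe set listed under their own name, and Mirg, Snrpn, Ube3a and Gnas lay on probe sets annotated to several genes, so these 7 were not analysed here. The ureteric bud, the epithelium that branches into the collecting ducts, was taken from E15.5 kidneys with trypsin and its cells were sorted on YFP. The RNA of each sample was hybridised to an Affymetrix whole-transcript array. The 3 mutant arrays held cells of the genotype Dicerc/-; Hoxb7Cre; Rosa26YFP, in which Hoxb7Cre acts on a conditional Dicer allele in the ureteric bud, the other Dicer allele is null in all cells and YFP marks cells with Cre activity. The 3 control arrays are labelled wild type, a label that names no YFP by which control cells could be sorted. Whether the control carried Cre or the reporter is thus not stated, and an effect of either cannot be told apart from that of Dicer. Strain background was mixed in both groups. An array reads both parental copies of a transcript together, so a change in level does not say from which allele it came. Each group is also a bulk of sorted cells, in which fewer cells of a type and less RNA per cell cannot be told apart.

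In an imprinted domain several genes share 1 control region, which carries DNA methylation on the copy from one parent. On one parental copy the control region often allows a long non-coding RNA to be made, and the protein-coding genes around it are then silent on that copy. Many of the proteins act on growth before birth: paternally expressed genes such as Igf2 tend to promote it, and maternally expressed genes such as Igf2r, Cdkn1c and Grb10 tend to restrain it. Some genes of these domains, among them Ascl2, Cd81, Nap1l4 and Osbpl5, are imprinted mainly in the placenta, and Ube3a mainly in neurons. They are kept apart below as maternal in some tissues.

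Several imprinted transcripts also carry miRNAs, which Dicer cuts from their hairpins. By the RefSeq gene bounds (GRCm38.p6), 33 miRNA hairpins lay within 8 of the listed genes, 15 of them within Rtl1, 10 within Mirg, 3 within Rian, and 1 each within Igf2, H19, Meg3, Mest and Usp29. The bounds were compared without regard to strand, and the hairpins within those of Rtl1 lie on both strands. A hairpin within the bounds of a gene is thus not always part of the transcript of that gene. Mature miRNAs from these hairpins are shown because they are the Dicer products of the imprinted domains described here. The seed, bases 2 to 8, is in capitals, and no 2 of those shown share a seed.
mmu-miR-335-5p: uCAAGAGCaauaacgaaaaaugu (within Mest)
mmu-miR-483-3p: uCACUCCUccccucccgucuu (within Igf2)
mmu-miR-675-5p: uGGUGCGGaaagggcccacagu (within H19)
mmu-miR-770-5p: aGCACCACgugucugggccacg (within Meg3)
mmu-miR-127-3p: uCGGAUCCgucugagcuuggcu (within the bounds of Rtl1)
mmu-miR-370-3p: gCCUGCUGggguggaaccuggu (within Rian)
mmu-miR-410-3p: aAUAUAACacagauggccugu (within Mirg)

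Of the 35 measured genes, 10 rose in the mutant cells, 9 fell and 16 did not pass an adjusted p of 0.05 (limma, Benjamini-Hochberg adjustment over all genes). Over all genes 25.8% passed, 11.8% higher and 2690 genes (13.9%) lower in the mutant. That share was 39.6% among genes brighter than the median of all probe sets (7.51 on the log2 scale) and 11.9% among the dimmer ones. Of the 27 imprinted genes above that median 17 passed, and of the 8 below it 2 passed. Over the 35 the median log2 fold change was -0.02, beside -0.05 over all genes. The groups' arrays did not overlap for 11 genes with higher and 12 with lower values in the mutant, where 42.5% of all genes showed such a gap in either direction, 18.3% higher and 24.1% lower. Changes were small: the 19 that passed moved by 0.19 to 1.30 on the log2 scale, and 1 of the 35, Igf2r, reached 2-fold. When mutant replicate 1 was left out, 1764 genes fell over the whole array, and the imprinted genes gave 8 higher and 9 lower.

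**Figure D1:**
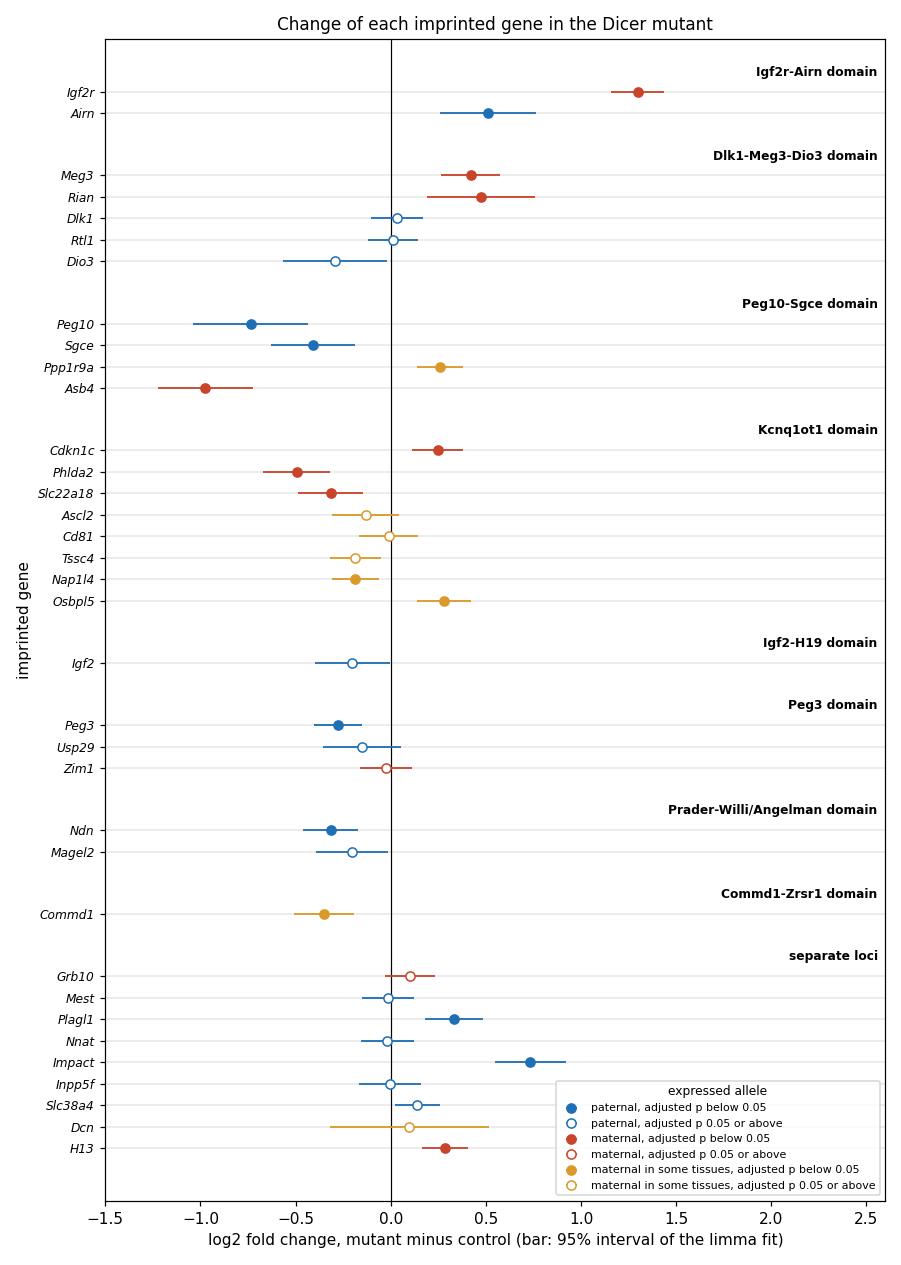
Log2 fold change of each of the 35 measured imprinted genes (mutant minus control, x axis) by domain, with the 95% interval of the limma fit as a bar, coloured by the expressed allele and filled where the adjusted p was below 0.05. Igf2r lies farthest to the right at 1.30 and Asb4 farthest to the left at -0.97, and in 4 of the 8 domains filled points stand beside open ones.

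The sort and the genotype were checked first. Dicer1, the targeted gene, measured 10.31, 10.38 and 10.25 in the control arrays and 9.80, 9.72 and 9.64 in the mutant arrays (log2 fold change -0.59 ± 0.06 SE, adjusted p = 0.0005). Since 1 Dicer allele is null in all mutant cells, this fall cannot tell deletion of the conditional allele by Cre from the lack of that copy. All 14 markers of the ureteric epithelium lay above the median of all probe sets. Of the 14, 9 fell, with the largest falls at Krt19 (log2 fold change -1.19), Wnt11 (-0.60) and Hoxb7 (-0.40). Wnt9b rose (1.42), and 4 did not pass, among them Cdh1 (0.03) and Epcam (-0.10). The share of the 14 that passed was 71.4%, beside 39.6% of all genes above that median. The list mean of the 14 ran from 11.48 to 11.51 in control and from 11.24 to 11.33 in mutant arrays. None of the 8 endothelial markers lay above that median (list mean 6.40 to 6.88 in control and 6.28 to 6.60 in mutant arrays), nor any of the 6 measured blood markers (5.70 to 5.91 and 5.66 to 5.78). Of the 10 stromal markers 3 did, 1 (Acta2) fell, and the list mean ran from 6.70 to 6.84 in control and from 6.65 to 6.74 in mutant arrays. The mean of 8 cap mesenchyme markers, the nephron progenitors around the bud, ran from 6.96 to 7.02 in control and from 7.38 to 7.41 in mutant arrays, with Six2 (log2 fold change 3.29) and Tmem100 (0.82) higher and Osr1 (-0.67) lower. The median log2 fold change of the 8 was -0.06, so the shift of their mean rests mostly on Six2. Six2 ran from 6.88 to 7.29 in control and from 10.31 to 10.41 in mutant arrays, and the cap genes Cited1 (0.27), Eya1 (-0.05), Gdnf (-0.15), Meox1 (-0.15) and Crym (-0.07) did not pass. Of the 7 measured tubule and podocyte markers, 1 (Lrp2) rose and 1 (Slc34a1) fell (list mean 6.51 to 6.85 in control and 6.73 to 7.01 in mutant arrays). The part of these marker shifts in the results below was not tested.

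The largest change in the 8 domains was at Igf2r, and both Igf2r and Airn rose although they are expressed from opposite parental copies. Igf2r, the receptor that clears Igf2 from the cell surface and carries enzymes to lysosomes, is expressed from the maternal copy. Its level was 10.31, 10.30 and 10.31 in the control arrays and 11.55, 11.70 and 11.56 in the mutant arrays. Every mutant array thus lay more than 1 log2 unit above every control array, and the control arrays were almost equal (2.46-fold higher, log2 fold change 1.30 ± 0.06 SE, adjusted p = 2.06e-05). Airn is the long non-coding RNA of the paternal copy, which runs antisense into Igf2r and silences it there. It measured 8.90, 8.99 and 9.28 in control and 9.70, 9.46 and 9.54 in mutant arrays. The groups did not overlap, but the gap between them was narrow (log2 fold change 0.51 ± 0.11 SE, adjusted p = 0.0107). The strand that each probe set reads is not given in the sources used here, so RNA from 1 of these overlapping genes could add to the signal of the other.

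The difference between Igf2r and Airn on the same array was 1.42, 1.31 and 1.03 log2 units in control and 1.85, 2.24 and 2.02 in mutant arrays. Without overlap of the groups, it grew by 0.79 in the mutant (SD 0.20 in each group, n = 3; two-sided exact permutation p = 0.1, the smallest that 3 against 3 arrays allow). Slc22a2, which Airn silences in the placenta, lies next to Igf2r and had a log2 fold change of -0.29 (adjusted p = 0.0988). Of the 5 nearest measured genes on each side of the pair, Qk (0.39) and Map3k4 (0.21) rose, Mrpl18 fell (-0.26) and 7 did not pass. The promoter windows of both genes, 250 bases before to 50 after the start in RefSeq, are printed because the pair moved together. Each CG dinucleotide, the site of methylation, is in capitals.
Igf2r promoter window (GRCm38.p6 chr17:12769657-12769956, minus strand): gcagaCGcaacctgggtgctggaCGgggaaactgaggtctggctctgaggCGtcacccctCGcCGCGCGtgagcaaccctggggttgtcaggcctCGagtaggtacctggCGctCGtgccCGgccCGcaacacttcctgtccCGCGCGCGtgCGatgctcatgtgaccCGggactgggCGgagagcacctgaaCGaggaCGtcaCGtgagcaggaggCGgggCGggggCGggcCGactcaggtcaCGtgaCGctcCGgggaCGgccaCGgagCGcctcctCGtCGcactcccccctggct
Airn promoter window (GRCm38.p6 chr17:12741061-12741360, plus strand): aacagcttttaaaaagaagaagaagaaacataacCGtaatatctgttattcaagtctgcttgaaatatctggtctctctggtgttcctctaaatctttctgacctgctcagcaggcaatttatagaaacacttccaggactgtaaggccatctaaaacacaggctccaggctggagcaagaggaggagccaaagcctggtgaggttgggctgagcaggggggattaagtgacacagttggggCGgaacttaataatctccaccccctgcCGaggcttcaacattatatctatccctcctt
The Igf2r window holds 34 CG dinucleotides, a number reached by 7.73% of the 32851 windows in the table, whose median is 7. The Airn window holds 3, and 76.69% of windows hold at least that many. No measure of methylation was made, so the letters are shown as a description only.

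**Figure D2:**
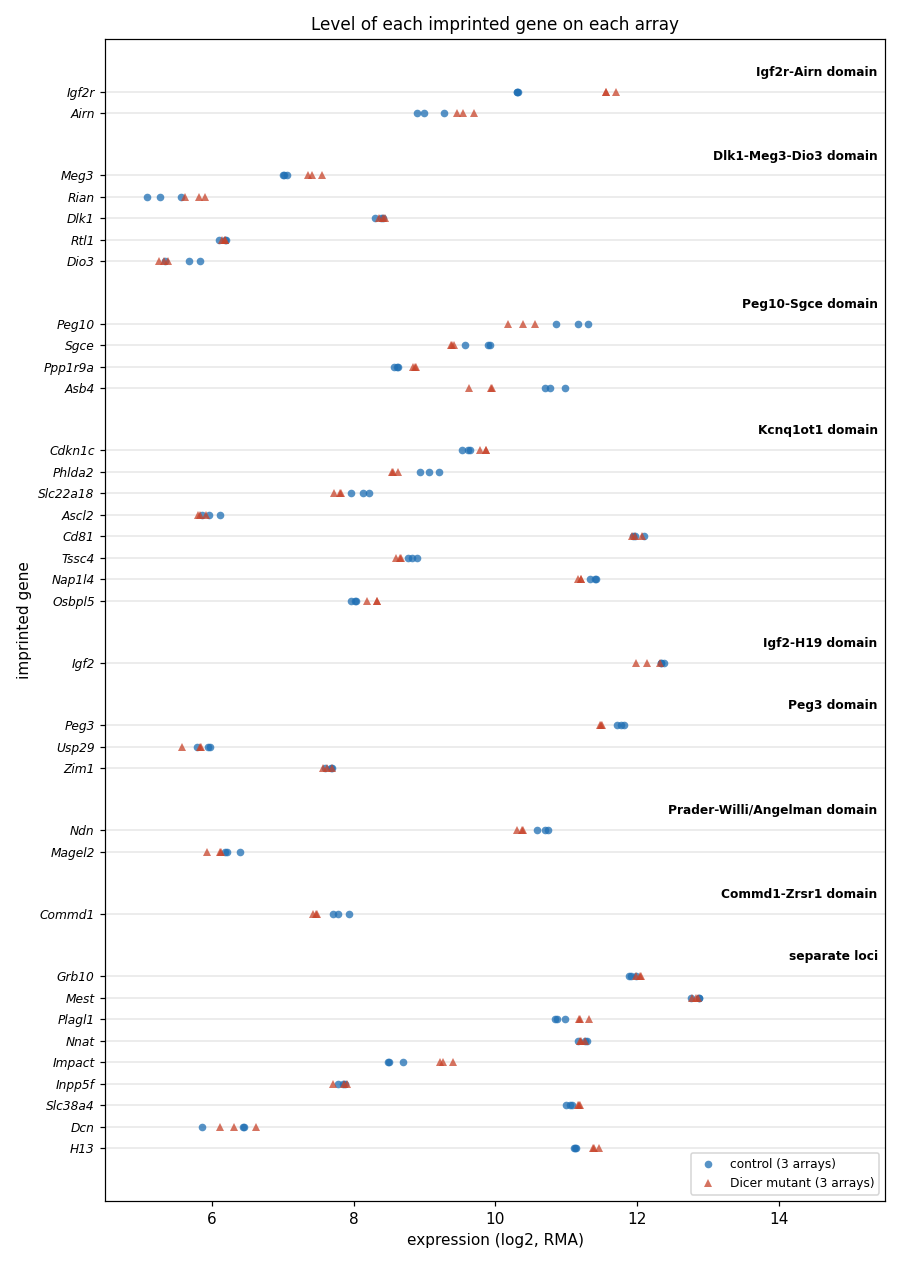
Expression of each measured imprinted gene on every array (x axis, RMA values on the log2 scale), with circles for the 3 control and triangles for the 3 Dicer mutant arrays, grouped by domain. For Igf2r the circles lie at 10.30 to 10.31 and the triangles at 11.55 to 11.70, whereas for Dlk1 and Mest the symbols lie on top of each other.

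In the Dlk1-Meg3-Dio3 domain the maternally expressed non-coding RNAs rose and the paternally expressed coding genes did not pass, with 5 of its 6 genes measured. Meg3, a long non-coding RNA that is also the start of the maternal transcript, measured 7.01, 7.06 and 7.00 in control and 7.55, 7.42 and 7.35 in mutant arrays. Each mutant array was above all control arrays (log2 fold change 0.42 ± 0.07 SE, adjusted p = 0.0028). Rian, which carries small nucleolar RNAs and miRNAs farther along, measured 5.09, 5.56 and 5.27 in control and 5.82, 5.63 and 5.90 in mutant arrays. Here control replicate 2 came close to mutant replicate 2 (log2 fold change 0.47 ± 0.12 SE, adjusted p = 0.0241). Both RNAs were among the 8 dim imprinted genes. The call of Rian was lost without control replicate 1 or 3 and without mutant replicate 1 or 3 (adjusted p up to 0.0827).

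Dlk1, a membrane protein of the Notch ligand type that holds back differentiation, measured 8.42, 8.30 and 8.39 in control and 8.42, 8.35 and 8.44 in mutant arrays. The groups lay on each other, with a log2 fold change of 0.03 and a 95% interval from -0.10 to 0.17. Rtl1, derived from a retrotransposon and needed in the placenta, had a log2 fold change of 0.01 (95% interval -0.12 to 0.14). Dio3, which inactivates thyroid hormone, had -0.29 (adjusted p = 0.111). Without control replicate 3 the Dio3 value was -0.43 (adjusted p = 0.0067), and without control replicate 2 it was -0.18 (adjusted p = 0.285). The difference between Meg3 and Dlk1 on an array grew by 0.39 log2 units and did not overlap between groups (exact permutation p = 0.1, again the smallest possible).

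The Dlk1-Meg3-Dio3 domain holds the largest miRNA cluster of the domains described here. Of 51 imprinted miRNA loci listed, 41 had a probe set of their own under the listed name. Of the 41, 3 lay above the median of all probe sets. Mir299 and Mir496 of the list were measured as Mir299a (log2 fold change 0.01) and Mir496a (-0.24, limma adjusted p = 0.0976). Both are left out of the counts of this list. None of the 41 rose and 1 fell by limma, Mir296 of the Gnas locus (log2 fold change -0.31, adjusted p = 0.0492). The median of the 41 was -0.08. At an unadjusted p under 0.05, 1 was higher and 6 were lower, where 15.8% of all genes were higher and 21.5% lower, and 5.97% and 15.3% of the genes dimmer than the median. The counts of this list after adjustment ran from 0 to 1 higher and 0 to 6 lower when single arrays were left out, the 6 without control replicate 3. Mir370, within Rian, had -0.15, and Mir127, within the bounds of Rtl1, had -0.09. Mir335, within Mest, had -0.22 and Mir483, within Igf2, had -0.14, none of them past the threshold. The short probe sets of miRNA loci read hairpin or host RNA and do not measure the mature miRNA.

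All 4 genes of the Peg10-Sgce domain passed, 3 of them lower. All 4 lay above the median of all probe sets, where 39.6% of all genes passed. Asb4, the substrate-binding part of a ubiquitin ligase and expressed from the maternal copy, measured 10.70, 10.77 and 10.98 in control and 9.94, 9.63 and 9.95 in mutant arrays. This was the largest fall of the 35 genes, with a wide gap between the groups (1.97-fold lower, log2 fold change -0.97 ± 0.11 SE, adjusted p = 0.000548). Peg10, a retrotransposon-derived gene expressed from the paternal copy, measured 10.86, 11.30 and 11.17 in control and 10.56, 10.18 and 10.39 in mutant arrays. Both groups were spread, but they did not overlap (1.67-fold lower, adjusted p = 0.00486).

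Sgce, which encodes epsilon-sarcoglycan and is read divergently from the region between it and Peg10, measured 9.57, 9.93 and 9.89 in control and 9.41, 9.38 and 9.39 in mutant arrays. The mutant arrays were nearly equal and control replicate 1 was the closest to them (log2 fold change -0.41 ± 0.10 SE, adjusted p = 0.0161). Without control replicate 2, mutant replicate 2 or mutant replicate 3 the adjusted p of Sgce was 0.0517 to 0.0562. Ppp1r9a, which encodes the actin scaffold neurabin, was the member that rose, from 8.56, 8.63 and 8.62 to 8.84, 8.87 and 8.88 (log2 fold change 0.26 ± 0.05 SE, adjusted p = 0.00869). It lies next to Peg10, and the paraoxonase genes Pon1 (-0.01), Pon3 (0.23) and Pon2 (0.04), which lie between Ppp1r9a and Asb4, did not pass. Neighbours outside the domain moved both ways, with Gng11 (-0.41) and Sem1 (-0.36) lower, Slc25a13 (0.30) higher and 7 of 10 not past the threshold.

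Genes of the Kcnq1ot1 domain moved in both directions. Of 8 measured, 2 rose, 3 fell and 3 did not pass, and their median was -0.16 on the log2 scale. Of the 8, 7 lay above the median of all probe sets, where 39.6% of all genes passed. Cdkn1c, the cyclin-dependent kinase inhibitor p57, which is needed for the inner kidney to form, measured 9.62, 9.64 and 9.53 in control and 9.78, 9.87 and 9.87 in mutant arrays. All mutant values were above all control values, by a small margin (1.19-fold, adjusted p = 0.0168). Its call was lost without mutant replicate 2 (adjusted p = 0.059) or mutant replicate 3 (adjusted p = 0.0617).

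Phlda2, a pleckstrin-homology protein that restrains placental growth, lies nearby and went the other way. It measured 9.21, 9.07 and 8.94 in control and 8.54, 8.63 and 8.56 in mutant arrays, with a clear gap (log2 fold change -0.49 ± 0.08 SE, adjusted p = 0.00256). Slc22a18, a membrane transporter between Cdkn1c and Phlda2, measured 8.13, 8.21 and 7.97 in control and 7.82, 7.81 and 7.73 in mutant arrays. It too fell without overlap (log2 fold change -0.32 ± 0.07 SE, adjusted p = 0.0166), although its adjusted p was 0.0526 without control replicate 2 and 0.0626 without mutant replicate 3. These 3 neighbours are all expressed from the maternal copy, and their fold changes had both signs.

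Among the genes of this domain that are imprinted mainly in the placenta, Osbpl5, a lipid-transfer protein at the far end, measured 7.96, 8.03 and 8.02 in control and 8.33, 8.32 and 8.19 in mutant arrays. Its rise was small (log2 fold change 0.28, adjusted p = 0.0124, and 0.0575 without mutant replicate 1). Nap1l4, a histone chaperone, measured 11.41, 11.40 and 11.34 in control and 11.21, 11.17 and 11.21 in mutant arrays (log2 fold change -0.19, adjusted p = 0.0351). This was the weakest call, kept when control replicate 3 was left out and lost when any other single array was, at an adjusted p of up to 0.104. Tssc4, a factor of spliceosome assembly, had the same size of difference (-0.19) and missed the threshold with an adjusted p of 0.051. Ascl2, a basic helix-loop-helix transcription factor, and the tetraspanin Cd81 had -0.13 and -0.01. Kcnq1, the potassium channel gene inside which Kcnq1ot1 starts, fell (log2 fold change -0.62, adjusted p = 0.000828), and Tnfrsf22 (0.46) and Tnfrsf23 (0.31), death receptor relatives near Osbpl5, rose.

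**Figure D3:**
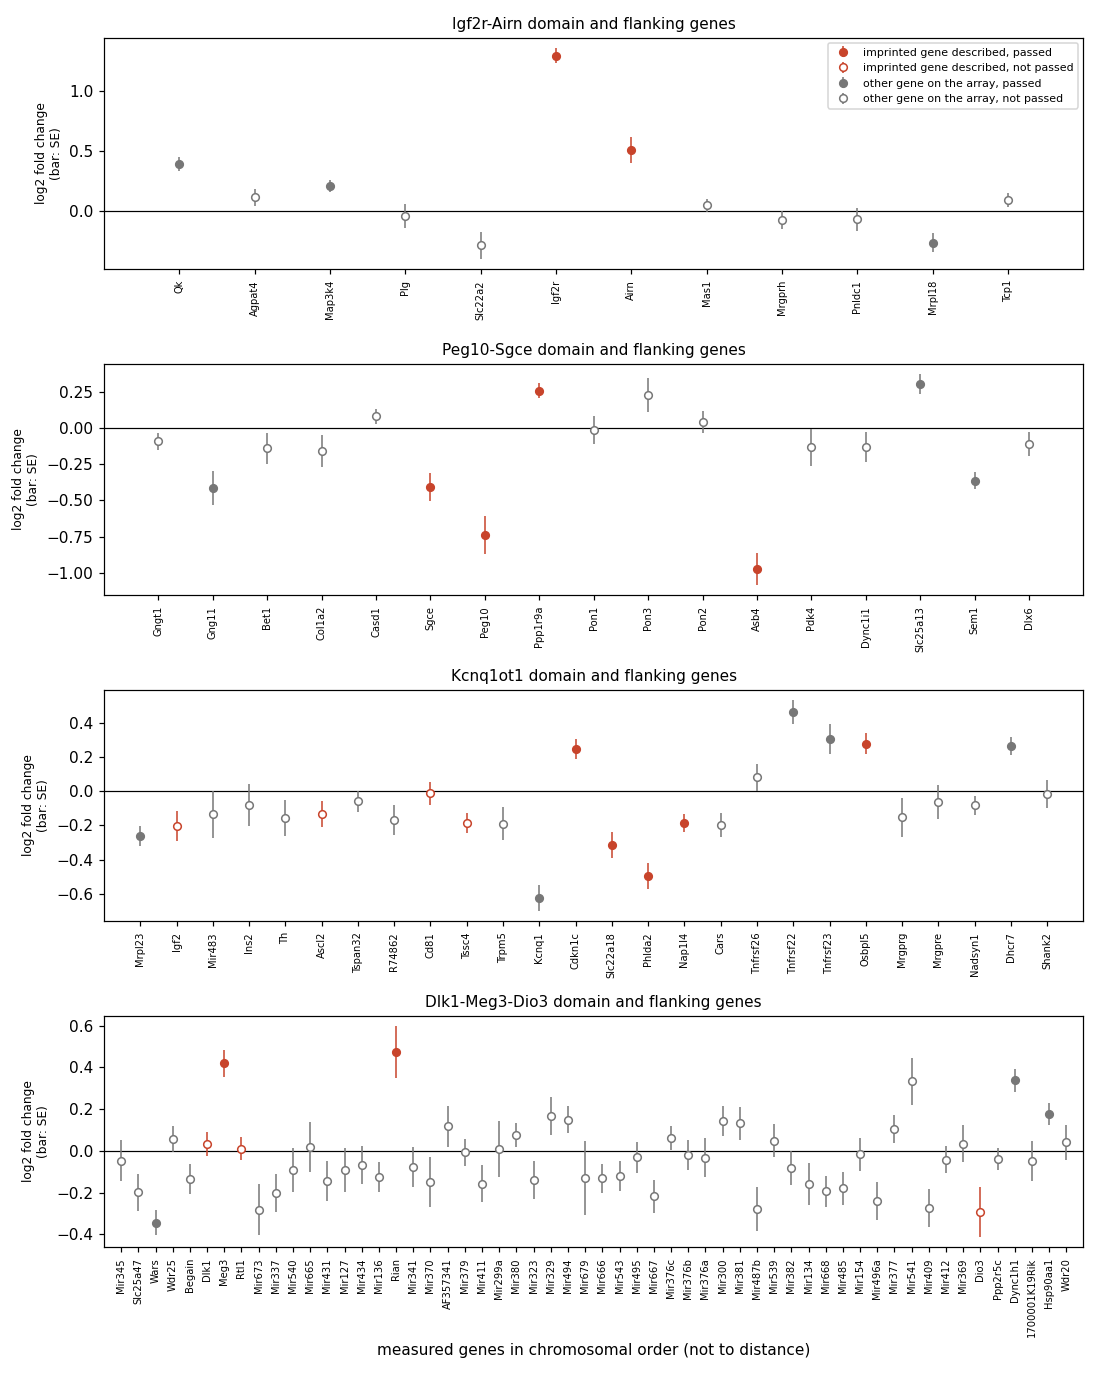
Log2 fold change with its standard error (y axis) of every measured gene of 4 domains and up to 5 genes on either side, in chromosomal order and not to distance (x axis), in red for the imprinted genes described and grey for other genes, filled where the adjusted p was below 0.05. Genes that rose and genes that fell lie side by side, for example Sgce (-0.41), Peg10 (-0.74) and Ppp1r9a (0.26).

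Flanking genes give the setting of these domains. Over the 8 domains, 65 flanking genes on no list of imprinted genes or miRNAs were measured, each counted once. Of them 11 rose and 7 fell, which is 27.7%, near the 25.8% of all genes. The 10 flanking genes of Ndn and Magel2, some of them on the further list of imprinted genes below, gave 4 higher and 0 lower (40%). The largest of these rises was that of Chrna7, a nicotinic acetylcholine receptor subunit, by 1.16 on the log2 scale (adjusted p = 4.15e-05). The others were Klf13 (0.41), Gabrg3 (0.27) and Mkrn3 (0.25).

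Igf2, the fetal growth factor expressed from the paternal copy, did not pass. It measured 12.34, 12.38 and 12.34 in control and 12.32, 12.14 and 11.99 in mutant arrays. Mutant replicate 1 almost reached the controls and the other mutant arrays lay lower (log2 fold change -0.20, 95% interval -0.40 to -0.00, adjusted p = 0.126). Without mutant replicate 1 its log2 fold change was -0.29, with an adjusted p of 0.0379, and without mutant replicate 3 it was -0.12 (adjusted p = 0.312). With a variance trend the adjusted p of Igf2 was 0.0478, and over the other alternatives it ran from 0.058 to 0.25. Of 6 measured genes for Igf2 receptors, their substrates and Igf2 mRNA-binding proteins, 2 rose and 1 fell. All 6 lay above the median of all probe sets, where 39.6% of all genes passed.

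Igf2bp1, which binds Igf2 mRNA, rose from 10.73, 10.85 and 10.90 to 11.83, 11.78 and 11.80 (1.97-fold, adjusted p = 5.43e-05). The insulin receptor Insr, which also binds Igf2, rose by 0.34 on the log2 scale (adjusted p = 0.00363). Irs1, an adaptor of both receptors, had a log2 fold change of -0.27 (adjusted p = 0.0367). The count of lower genes in this list was 2 without control replicate 2 and 0 when any other single array was left out. The call of Irs1 was thus lost in each of those other fits. The signalling receptor Igf1r had 0.03 and did not pass. At the ligand, the growth receptor and the clearing receptor the log2 fold changes were thus -0.20, 0.03 and 1.30.

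Paternally expressed Peg3, a zinc-finger protein, measured 11.78, 11.71 and 11.81 in control and 11.51, 11.47 and 11.49 in mutant arrays. Both groups were tight and apart (log2 fold change -0.28 ± 0.05 SE, adjusted p = 0.00705). Usp29, a deubiquitinase read in the opposite direction from the same promoter, had -0.15 (adjusted p = 0.256), and the maternally expressed zinc-finger gene Zim1 had -0.02 (95% interval -0.16 to 0.11). The window of Peg3 is shown because its promoter overlaps that of Usp29 (chr7:6730333-6730632, plus strand), so that both genes start within the same stretch.
Peg3 promoter window (GRCm38.p6 chr7:6730370-6730669, minus strand): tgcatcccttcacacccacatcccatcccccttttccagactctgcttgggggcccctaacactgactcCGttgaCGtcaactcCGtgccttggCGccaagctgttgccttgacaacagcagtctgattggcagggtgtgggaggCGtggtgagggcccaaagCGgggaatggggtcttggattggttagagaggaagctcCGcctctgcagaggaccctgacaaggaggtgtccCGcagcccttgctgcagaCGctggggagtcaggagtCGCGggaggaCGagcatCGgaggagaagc
It holds 13 CG dinucleotides, a number reached by 37.91% of all windows. The difference between Zim1 and Peg3 on an array changed by 0.25 log2 units without overlap of the groups (exact permutation p = 0.1). With Benjamini-Hochberg adjustment over the 3 pairs that could be measured, of 6 planned, all 3 stayed at 0.1.

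Ndn, or necdin, a paternally expressed MAGE family protein of the Prader-Willi/Angelman domain, measured 10.70, 10.59 and 10.74 in control and 10.31, 10.39 and 10.37 in mutant arrays. It fell without overlap (log2 fold change -0.32 ± 0.06 SE, adjusted p = 0.00743). Magel2, its relative next to it, had -0.21 (adjusted p = 0.107). The next measured genes, Mkrn3 and Peg12, belong to the further list of imprinted genes below. Of these, the dim gene Mkrn3 rose (log2 fold change 0.25, adjusted p = 0.0215) and Peg12 had -0.03 (adjusted p = 0.772). Commd1, which acts in copper handling and contains Zrsr1 in an intron, measured 7.93, 7.71 and 7.79 in control and 7.43, 7.48 and 7.47 in mutant arrays. Its fall was of a size like that of Ndn (log2 fold change -0.35 ± 0.07 SE, adjusted p = 0.00745).

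There were 9 measured genes in separate loci, 8 of them above the median of all probe sets, where 39.6% of all genes passed. Of the 9, 3 rose, none fell and 6 did not pass (limma). At an unadjusted p under 0.05, 4 were higher and 0 lower, against 15.8% and 21.5% of all genes, the added gene being Slc38a4 (log2 fold change 0.14, adjusted p = 0.0879), an amino acid transporter. Impact, whose protein holds back the stress kinase Gcn2, measured 8.50, 8.70 and 8.48 in control and 9.22, 9.40 and 9.26 in mutant arrays. This was the second largest rise of the 35 genes, with the groups well apart (1.66-fold, log2 fold change 0.73 ± 0.08 SE, adjusted p = 0.000529). Plagl1, a zinc-finger transcription factor that controls other imprinted genes, measured 10.84, 10.98 and 10.87 in control and 11.32, 11.19 and 11.19 in mutant arrays (1.26-fold higher, adjusted p = 0.00765). H13, the signal peptide peptidase, rose from 11.14, 11.12 and 11.11 to 11.39, 11.45 and 11.38, with very tight groups (log2 fold change 0.29 ± 0.05 SE, adjusted p = 0.00557).

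Mest, a paternally expressed hydrolase-like protein, measured 12.75, 12.87 and 12.86 in control and 12.85, 12.82 and 12.77 in mutant arrays. The groups overlapped fully, and the 95% interval of the log2 fold change ran from -0.15 to 0.12. Grb10, an adaptor that damps insulin and Igf signalling and is expressed from the maternal copy outside neurons, measured 11.91, 11.88 and 11.98 in control and 12.06, 12.03 and 11.98 in mutant arrays. Mutant replicate 3 fell among the controls (log2 fold change 0.10, 95% interval -0.03 to 0.23, adjusted p = 0.246). The proteolipid Nnat (-0.02) and the phosphatase Inpp5f (-0.00) did not pass either. Dcn, the matrix proteoglycan decorin made by stromal cells, had 0.10 with a wide interval of -0.32 to 0.52.

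By the parental allele expressed, the paternal class gave 3 genes higher, 4 lower and 10 not past the threshold of 17 measured, and its median log2 change was -0.02. That median ran from -0.06 (without control replicate 2) to -0.01 (without mutant replicate 3) when single arrays were left out. The maternal class gave 5 higher, 3 lower and 2 not past the threshold of 10, with a median of 0.17. Genes that are maternal in some tissues gave 2 higher, 2 lower and 4 not past the threshold of 8, with a median of -0.07. The shares that passed were 41.2% (paternal), 80% (maternal) and 50% (maternal in some tissues), beside 25.8% of all genes. Above the median of all probe sets, where 39.6% of all genes passed, lay 13, 8 and 6 genes of the 3 classes. Each class thus held genes that rose and genes that fell. The largest rise (Igf2r, 1.30) and the largest fall (Asb4, -0.97) were both in the maternal class. Without genes dimmer than the median the maternal median was 0.04, and the sign of the paternal median turned under both other scalings (0.01 with quantile normalization and 0.02 with median centring). The difference between classes was not tested.

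**Figure D4:**
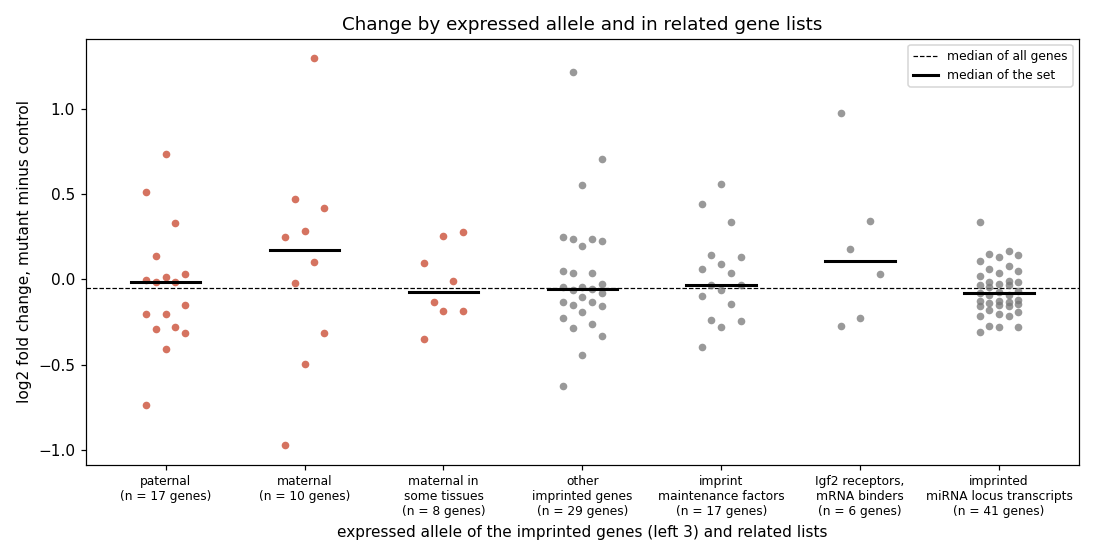
Log2 fold changes (y axis) of the measured imprinted genes by expressed allele (red, left 3 columns) and of 4 related gene lists (grey), 1 point a gene, with the median of each set as a thick bar and the median of all genes (-0.05) as a dashed line. Points of every column lie on both sides of 0, and the miRNA locus transcripts stay within -0.31 and 0.33.

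Other imprinted genes of the mouse, from a further list of 32 names of which 29 were measured, gave 7 higher, 4 lower and 18 not past the threshold, and the median log2 change was -0.06. The share that passed was 37.9%, beside 25.8% of all genes, and 12 of the 29 lay above the median of all probe sets. Zdbf2, a paternally expressed gene that acts on feeding and growth after birth, showed the largest rise of that list. It measured 7.93, 8.29 and 8.54 in control and 9.48, 9.51 and 9.43 in mutant arrays (2.33-fold, adjusted p = 0.000567). Gatm, the first enzyme of creatine synthesis, rose 1.63-fold (adjusted p = 0.000328), and Tfpi2, a protease inhibitor near the Peg10-Sgce domain, rose by 0.56 on the log2 scale (adjusted p = 0.00234). With Kcnq1, these were the 4 members of that list with the smallest p. The higher count was 4 when control replicate 2 or any 1 mutant array was left out.

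Factors that set imprints or keep them after fertilisation gave 3 higher, 3 lower and 11 not past the threshold of 17 measured. The share that passed was 35.3%, and 14 of the 17 lay above the median of all probe sets, where 39.6% of all genes passed. The de novo methyltransferases Dnmt3b and Dnmt3a rose by 0.56 and 0.34 on the log2 scale (adjusted p = 0.000373 and 0.00296), as did the chromatin factor Arid4b by 0.44 (adjusted p = 0.00286). Dppa3, which protects imprints in the egg and early embryo, had -0.40 (adjusted p = 0.00546) and was dimmer than that median. Uhrf1 (-0.25), which brings the maintenance methyltransferase to DNA, and Mbd3 (-0.28) also fell. Dnmt1 itself had -0.03, the imprint-binding zinc-finger genes Zfp57 and Zfp445 had 0.06 and -0.06, and none of the 3 passed.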

How the data were processed

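The authors deposited 1 log2 expression value for each probe set on each array. The submitters' processing notes name RMA and affy, with versions, genome build and filters not given in the sources used here. This method brings arrays to 1 common distribution, which hides a shift shared by most transcripts and compresses the changes of dim genes. Of 23309 probe sets, 20728 had 1 symbol, and the brightest per gene was kept. The arrays had medians of 7.47 to 7.54 and correlated at 0.996 to 0.998 within groups. The labels call the samples biological replicates without saying how many embryos each held, and p-values cover only the spread among them.

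The 6 arrays entered 1 linear model of genotype (limma 3.58.1, R 4.3.3, lmFit and eBayes), with a threshold of 0.05 after Benjamini-Hochberg adjustment over 19296 genes. On simulated arrays of these genes, the Dicer mutant against control fit recovered 66% of the genes given a log2 change of 0.5 and 94% of those given 1. Only 50 genes were given each size, a far smaller share than the 25.8% that passed on the real arrays. The adjusted threshold depends on that share, so these recoveries do not give the sensitivity on the real arrays. The genes, domains, alleles and lists come from general knowledge and were chosen with earlier results of these data known. Values of each array were given for every gene past the threshold and for a fixed set of domain genes. Of each related list up to 4 members past the threshold were named by smallest p. Mbd3, Uhrf1, Chrna7, Tnfrsf22, Tnfrsf23, some miRNA loci, some cell type markers, other flanking genes and members below the threshold were named after their values were seen. Gene order, miRNAs and promoters are from RefSeq (GRCm38.p6), and 34 of the 42 genes had a promoter window. Alternatives were quantile normalization, centring on array medians, leaving out single arrays or dim genes, the replicate number as a block, the mean of probe sets, a variance trend, array weights and a threshold of 0.01. Figures were drawn with matplotlib 3.10.9.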

Additional observations from a re-analysis of the deposited data

How the results depend on the processing

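Of the 19 imprinted genes past the threshold, 13 kept the call under all 13 alternatives other than the stricter threshold (12 for Meg3, which is dim), and 0 of the 19 changed sign. Rian, Sgce, Cdkn1c, Slc22a18, Nap1l4 and Osbpl5 lost it under 1 or more. Tssc4 and Slc38a4 passed under both the quantile and the trend alternatives. Same-numbered arrays did not deviate together (correlations -0.22 to -0.10), so the numbers were not taken as pairs. With the replicate number as a block, 8 imprinted genes were higher and 8 lower, since Rian, Cdkn1c and Nap1l4 lost the call, and the whole array gave 1725 higher and 1878 lower. That fit gave 3 higher genes among the other imprinted genes, 0 lower in the Igf2 list and 0 lower miRNA loci. At a threshold of 0.01 the whole array gave 1367 higher and 1423 lower, the imprinted genes 6 higher, the other imprinted genes 3 higher and 1 lower, and the Igf2 list and the miRNA loci 0 lower each.

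With quantile normalization the medians were 0.093 for Dlk1-Meg3-Dio3, -0.083 for Peg3, -0.11 for Kcnq1ot1 and -0.023 for genes maternal in some tissues. Under that scaling and under median centring 1 miRNA locus was higher and 0 lower. Median centring gave 2696 higher and 2241 lower genes in all. Without dim genes the maternal median was 0.037 and 4 other imprinted genes were higher. The miRNA loci gave 1 higher and 2 lower with a variance trend, and 1 higher and 4 lower with array weights.

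With single arrays left out, all genes gave 1635 to 2157 higher and 1764 to 2973 lower, and the imprinted genes 8 to 10 higher and 6 to 10 lower. Medians ran from -0.18 to -0.12 for Kcnq1ot1, from -0.21 to -0.064 for Peg3 and from -0.14 to -0.015 for genes maternal in some tissues. The other imprinted genes had 4 to 6 higher, the Igf2 list 0 to 2 lower, and the miRNA loci 0 to 1 higher and 0 to 6 lower. The causes of these shifts were not tested. The table holds no detection call, so signal over background is unknown, and precision is limited by having 3 arrays a group.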
